A study of Homo sapiens with 6 samples.

Results

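Intergenic long noncoding RNAs (lncRNAs) with 3 or more exons were examined in K562 cells, an established human line from a chronic myelogenous leukemia. Each file lists counts per transcription unit (TU), here 1 annotated transcript. Of 42371 counted transcripts, 37339 were matched to GENCODE by identifier, and 37168 of them have a position on GRCh38. Of 13121 lncRNA TUs, 6877 overlapped no protein-coding gene on either strand, and 4049 of these had 3 or more exons. Symbols ending in -DT or starting with SNHG or MIR, and GAS5, ZFAS1, DANCR, EPB41L4A-AS1, TUG1, PVT1, CCDC26, OIP5-AS1, LINC-PINT, FTX, H19 and MEG3, were left out (194 TUs), which leaves 3855 TUs of 3843 genes, called multi-exon lincRNAs below. The LINC series supplies 1465 of them, and 2001 are known by an identifier alone. The 4 RNA-seq libraries (total RNA after rRNA depletion) and the 2 PRO-seq libraries (nascent RNA) all came from untreated cells of 1 flask, grown in RPMI medium with serum and antibiotics. The p-values below therefore measure the spread between libraries, which may be technical.

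As background, PRO-seq maps engaged RNA polymerases and so reports how actively a TU is transcribed, whereas RNA-seq reports how much RNA is present. At steady state the ratio of RNA to transcription is proportional to the half-life of the RNA. Most lincRNAs are transcribed by RNA polymerase II, capped, and in part spliced and polyadenylated like mRNAs, yet they are on the whole less abundant. Several act in the nucleus (MALAT1 in speckles, FIRRE in chromatin folding), and many have been studied because their levels change in tumours.

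The last 50 bases of counted transcripts show the RNA 3′ ends of members at either end of the range of relative half-life (RNA-seq level over PRO-seq level), with the canonical polyadenylation signal (AATAAA) in capitals. The first 4 have the highest half-lives past the thresholds.
ENSG00000285646: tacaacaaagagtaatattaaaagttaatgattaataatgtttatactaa
LINC01610: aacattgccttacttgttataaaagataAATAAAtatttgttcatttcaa
ENSG00000232053: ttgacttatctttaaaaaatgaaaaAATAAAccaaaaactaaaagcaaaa
LINC02780: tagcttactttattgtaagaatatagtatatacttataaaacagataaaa
The next 4 are from the low end of the range.
ENSG00000225218: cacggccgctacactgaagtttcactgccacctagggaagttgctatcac
ENSG00000225750: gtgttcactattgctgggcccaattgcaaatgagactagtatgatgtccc
ENSG00000282885: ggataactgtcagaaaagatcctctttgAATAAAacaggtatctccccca
LINC01569: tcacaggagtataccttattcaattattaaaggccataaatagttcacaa
In LINC01610 and ENSG00000282885 the signal starts 22 bases before the end, and in ENSG00000232053 25 bases before it. The other 5 windows hold no AATAAA. Over all multi-exon lincRNAs, 37.6% of 3853 had AATAAA in the last 50 bases, against 33.1% of 2-exon intergenic lncRNAs, 54.5% of single-exon ones and 57.7% of mRNAs. A match to these letters says nothing of whether the site is used.

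RefSeq promoters (GRCh38.p14, 250 bases before to 50 after a gene's start) were matched by symbol to 1131 members, and for 741 of these the RefSeq start is within 100 bases of the start of the counted TU. MALAT1 had the highest PRO-seq TPM among the 741, and LINC00460 had the fewest PRO-seq counts among the matched genes of the lists described below (0 PRO-seq counts and 1 RNA-seq count). Both are printed with each CG dinucleotide in capitals.
MALAT1 (chr11:65497488-65497787, plus strand): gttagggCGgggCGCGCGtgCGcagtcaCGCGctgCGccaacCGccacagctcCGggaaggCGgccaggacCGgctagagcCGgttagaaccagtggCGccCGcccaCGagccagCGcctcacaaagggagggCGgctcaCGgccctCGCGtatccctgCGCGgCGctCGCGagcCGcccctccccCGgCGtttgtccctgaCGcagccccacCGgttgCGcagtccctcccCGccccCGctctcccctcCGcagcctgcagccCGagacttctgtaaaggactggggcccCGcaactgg
LINC00460 (chr13:106376314-106376613, plus strand): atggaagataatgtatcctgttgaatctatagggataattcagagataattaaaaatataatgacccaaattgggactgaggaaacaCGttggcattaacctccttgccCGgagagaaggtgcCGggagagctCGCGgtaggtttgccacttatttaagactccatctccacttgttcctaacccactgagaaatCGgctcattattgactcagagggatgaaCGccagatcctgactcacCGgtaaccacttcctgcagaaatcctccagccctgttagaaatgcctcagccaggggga
The MALAT1 promoter holds 37 CG dinucleotides and the LINC00460 promoter 8. The median was 14 for the 35 matched members with a half-life estimate and 4 for the 706 without one, against 28 for 5594 mRNAs with an estimate. Median GC content was 58.0% and 47.0% in the 2 sets of members. The letters TATAAA, on either strand, were present in 2.86% of the 35 promoters, 18.1% of the 706 and 12.0% of all 27305 promoters. AGATAA, a core of sites for GATA factors, was present in 17.1%, 17.3% and 10.5%.

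RNA-seq libraries held 5732780 to 9002746 counts on TUs, and the PRO-seq libraries 6993816 and 7245632. All 8 listed erythroid markers of K562 cells were above 1 TPM in RNA-seq (TPM is a count divided by the counted length and scaled to the same total in each assay). They ranged from HBZ at 13.2 TPM to HBG2 at 6289 TPM. Of 6 markers of other cell types that could be matched, EPCAM (119.9 TPM) and COL1A2 (1.36 TPM) were above 1 TPM. RNA-seq replicates 1 and 3, and replicates 2 and 4, were close to one another: chi-square per TU was 1.12 within each pair and 1.72 to 2.10 between pairs, so these 4 may hold fewer than 4 independent preparations.

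More multi-exon lincRNAs were seen in PRO-seq than in RNA-seq. At least 1 PRO-seq count was present in 77.5% of 3853 members with a PRO-seq length (Wilson 95% interval 76.2% to 78.8%), and at least 1 RNA-seq count in 46.2% (44.6% to 47.7%). Both assays had counts in 1531 members, PRO-seq alone in 1456, RNA-seq alone in 248 and neither in 618. Intervals cover counting error only. The shares in mRNAs were 88.2% in PRO-seq and 85.1% in RNA-seq. Among 2-exon intergenic lncRNAs they were 53.5% and 36.7%. Single-exon intergenic lncRNAs were the other way round, with 49.2% in PRO-seq and 70.5% in RNA-seq. In members, PRO-seq counts were taken over a median span of 19556 bp less 1000 bp, and RNA-seq counts over a median of 872 exonic bases. In single-exon intergenic lncRNAs the median span and exonic length were both 2161.5 bp, again less 1000 bp for PRO-seq. The assays therefore do not have the same reach per TU, and the part of length in these shares was not tested. A minimum of 10 counts left 39.9% of members in PRO-seq and 12.6% in RNA-seq.

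Detection was higher in members with more exons. In PRO-seq it was 68.3% of 1629 members with 3 exons, 78.2% of 950 with 4, 87.7% of 821 with 5 to 6, and 90.9% of 453 with 7 or more. In RNA-seq the same groups gave 40.1%, 44.7%, 50.4% and 63.4%, and no interval in 1 assay overlapped between 3 exons and 7 or more. Longer TUs collect more counts at the same level, and members with more exons were longer: the median span was 10722 bp with 3 exons and 58456 bp with 7 or more, and the median exonic length 679 and 1859 bases. The part of length in these shares was not tested.

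**Figure D1:**
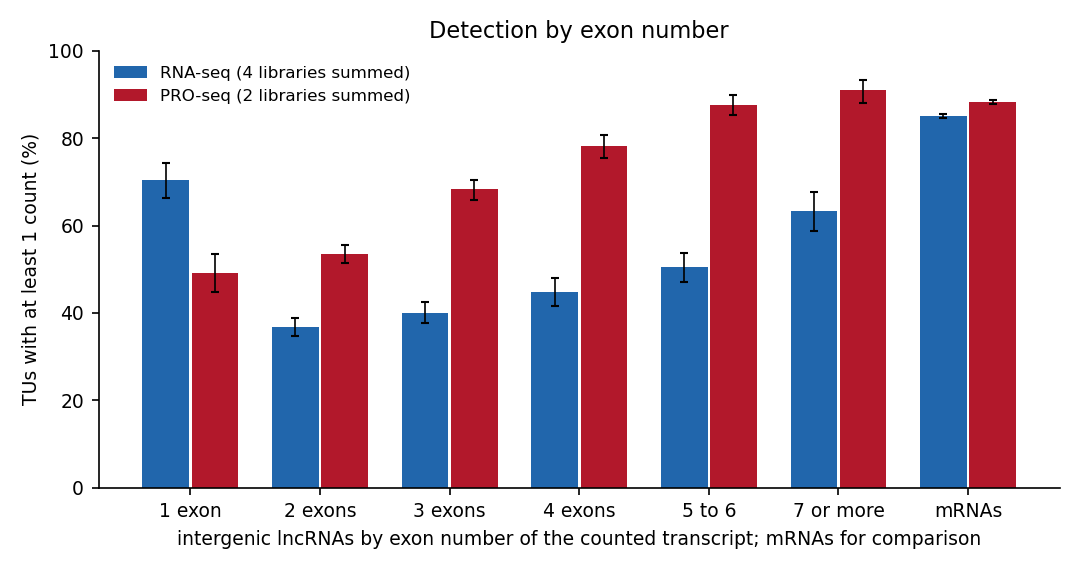
Percent of TUs with at least 1 count in the summed RNA-seq (blue) and PRO-seq (red) libraries, by exon number of intergenic lncRNAs, with mRNAs at the right; error bars are Wilson 95% intervals. From 2 exons upward PRO-seq bars stand above RNA-seq bars, and in members both grow with exon number, to 90.9% and 63.4% at 7 or more exons.

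As a share of a library, members took 3.003% of PRO-seq counts on TUs (SD 0.00896, n = 2) and 0.662% of RNA-seq counts (SD 0.0241, n = 4). The RNA-seq libraries ranged from 0.635% to 0.683% and the PRO-seq libraries were at 3.009% and 2.996%, so the groups did not overlap. With 4 libraries against 2, a two-sided exact permutation test cannot go below p = 0.133, the value it gave here. The 3 most counted members held 64.0% to 65.1% of a library's member counts in RNA-seq and 10.63% to 11.005% in PRO-seq. In every RNA-seq library these 3 were MALAT1, ENSG00000285646 and ENSG00000266976.

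Across the 1531 members with counts in both assays, PRO-seq and RNA-seq TPM had a Spearman's rho of 0.699 (0.654 to 0.697 over the 8 pairs of 1 RNA-seq and 1 PRO-seq library). It was 0.641 over 513 2-exon intergenic lncRNAs, 0.770 over 217 single-exon ones and 0.835 over 14932 mRNAs. These are descriptions across TUs that share the same libraries. The median member in this set had 3 RNA-seq and 24 PRO-seq counts, so many RNA-seq values rest on a handful of reads. Above 1 TPM in RNA-seq were 379 members, above 10 TPM 89 and above 100 TPM 4. In these bulk libraries, fewer cells with an RNA and less RNA per cell cannot be told apart.

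**Figure D2:**
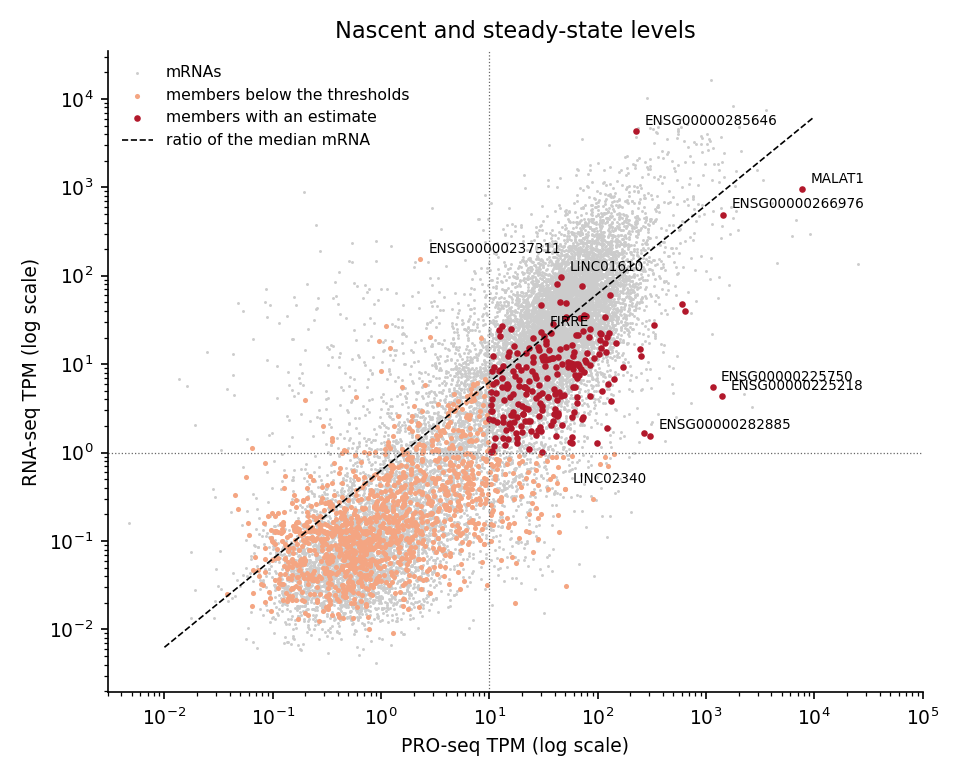
RNA-seq TPM against PRO-seq TPM, both on log scales, for mRNAs (grey) and members with counts in both assays (orange, and red where both thresholds, shown as dotted lines, are passed); XIST and members on chromosome Y are not plotted. Most red points lie below the dashed line of the median mRNA ratio, and ENSG00000285646 lies far above it.

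A relative half-life, RNA-seq TPM over PRO-seq TPM, was estimated where PRO-seq exceeded 10 TPM and RNA-seq exceeded 1 TPM. It is given on a log2 scale minus the value of the median mRNA, so that 0 is the median mRNA, whose RNA-seq TPM was 0.628 of its PRO-seq TPM. The thresholds were passed by 224 members, 69.3% of the 323 above 10 TPM in PRO-seq, against 95.4% of 9177 mRNAs. A further 99 members above 10 TPM in PRO-seq had too little RNA, and 155 above 1 TPM in RNA-seq had 10 TPM or less in PRO-seq. The thresholds therefore leave out members at both ends of the range, and the medians below describe the members that passed. Just inside the PRO-seq threshold, ENSG00000291147 had 10.0 TPM and a log2 half-life of -1.39, and just outside it LINC02835 had 9.90 TPM and -0.05.

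RNA of the 224 members was low for its transcription. Their median log2 half-life was -1.82, or 3.52-fold below the median mRNA, with quartiles of -2.68 and -0.71. Of the 224, 85 have an exon over an annotated pseudogene, with a median of -1.88, against -1.80 for the other 139. Such members passed the thresholds more often, 16.1% of 528 against 4.18% of 3325. Over the 8 library pairs the difference from mRNAs ran from -1.82 to -1.78. The median was -3.12 for 85 2-exon intergenic lncRNAs and -3.72 for 82 single-exon ones, so members stood 1.30 above the former (1.03 to 1.29 over library pairs) and 1.90 above the latter (1.597 to 2.01). These classes also differ in span: the median over all their TUs was 19556 bp in members, 4218 bp with 2 exons and 2161.5 bp with 1. The part of span in the class differences was not tested. For each class difference, the 4 RNA-seq libraries did not overlap the 2 PRO-seq libraries in median log2 TPM of members minus that of the other class. The two-sided exact permutation p was 0.133 for each of them, and 0.133 after adjustment over 5 comparisons, the smallest possible value. With 500 bp rather than 1000 bp taken off the span, the difference from single-exon lncRNAs was 1.25. With only the 53 members that overlap no other annotated gene, and all 85 2-exon lncRNAs as before, the difference was 0.70.

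edgeR was used to set each TU against the median mRNA. Of 224 members tested, 186 (83.0%) were below it at an adjusted p under 0.05, 19 (8.48%) were above it and 19 were not called. Over all 10079 TUs in the fit, 50.4% were below and 39.9% above. In mRNAs the shares were 45.0% below and 45.3% above, so members lay below more often than the background and above less often. Among the members called below, 154 differed by at least 2-fold, 101 by at least 4-fold and 14 by at least 16-fold. Of those called above, 8 differed by at least 2-fold. The median SD of the log2 half-life between libraries was 0.28 in 216 members with counts in every library and 0.13 in mRNAs, so calls on members rest on noisier values. With 1 count in each assay as the only minimum, 576 of 1531 members were below and 94 above, and with thresholds of 20 and 2 TPM 126 of 144 were below and 9 above. The share over all TUs is given for the main fit only, so these counts have no background beside them.

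**Figure D3:**
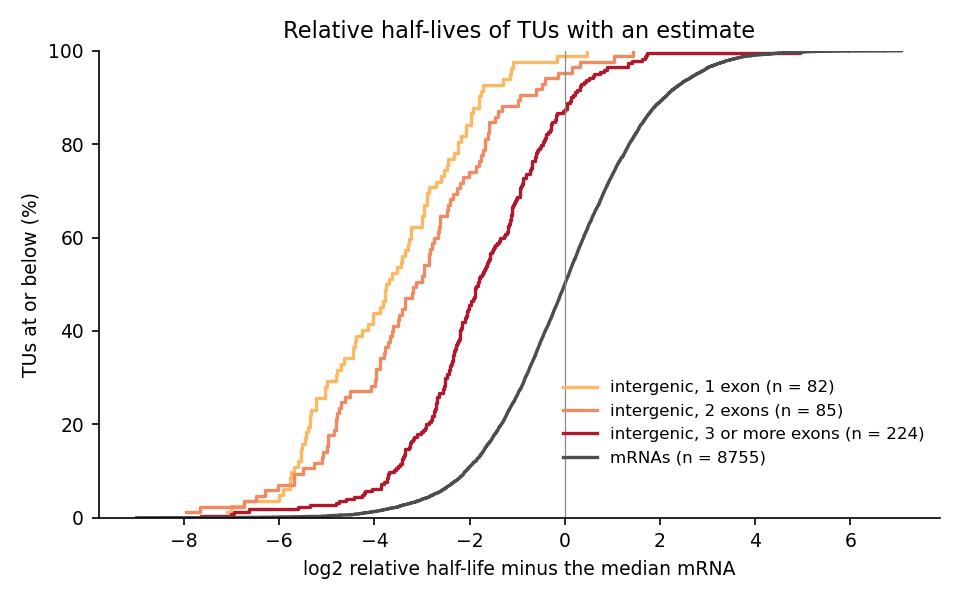
Cumulative percent of TUs against log2 relative half-life minus the median mRNA (vertical line at 0), for intergenic lncRNAs with 1, 2 and 3 or more exons and for mRNAs with an estimate. Multi-exon lincRNAs (n = 224, median -1.82) lie between intergenic lncRNAs with fewer exons (medians -3.72 and -3.12) and mRNAs.

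The gap to mRNAs was present at each level of transcription. Between 10 and 20 TPM in PRO-seq the median log2 half-life was -1.09 over 64 members, and mRNAs of that range had -0.09. Between 20 and 50 TPM it was -1.64 (82 members, mRNAs 0.02), between 50 and 100 TPM -2.07 (48 members, mRNAs 0.07), and over 100 TPM -2.67 (30 members, mRNAs -0.14). PRO-seq TPM is itself the denominator of the half-life. RNA above 1 TPM was present in 53.8% of 119 members between 10 and 20 TPM in PRO-seq and in 85.7% of 35 over 100 TPM. In mRNAs these shares were 86.3% and 98.8%. The threshold thus removes more low values from members, most of all between 10 and 20 TPM, so these medians cannot show whether the gap widens. With all TUs kept, median RNA-seq TPM between 10 and 20 TPM was 1.27 in members and 6.90 in mRNAs. Over 100 TPM it was 13.9 and 91.7.

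Within the members, exon number went with half-life weakly. The median was -2.07 for 72 members with 3 exons, -1.96 for 39 with 4, -1.31 for 54 with 5 to 6 and -1.67 for 59 with 7 or more, so it did not rise steadily. It was -1.47 for the 113 with 5 or more. The difference between 5 or more exons and 3 was 0.60 (0.34 to 0.73 over library pairs). In median log2 TPM the RNA-seq and PRO-seq libraries did not overlap for this difference either, with a two-sided exact permutation p of 0.133. With 1 count in each assay as the only minimum the difference was 0.16. Across the 224 members the rank correlation of half-life with exon number was 0.11, and with splice junctions per kb of RNA 0.12. Called below the median mRNA were 83.3% of members with 3 exons, 87.2% with 4 and 81.4% with 5 or more.

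Medians differed more across span than across exon number. The median log2 half-life was -2.76 for 48 members under 10 kb, -2.02 for 97 of 10 to 50 kb, -1.11 for 58 of 50 to 200 kb and -0.62 for 21 of 200 kb or more. The medians of mRNAs in the same ranges were -0.07, -0.02, 0.01 and 0.14. The rank correlation of half-life with span was 0.40 in members and 0.03 in mRNAs. Span also sets the length by which PRO-seq counts are divided: its rank correlation with PRO-seq TPM was -0.23, and with RNA-seq TPM 0.23. With GC content of the transcript the correlation was -0.25 in members and -0.18 in mRNAs. AATAAA in the last 50 bases, shown above for 8 members, was present in 36.8% of the 19 members called above the median mRNA and in 39.2% of the 186 called below. The median log2 half-life was -1.90 for the 87 members with the signal and -1.74 for the 137 without.

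Members close to protein-coding genes had lower median half-lives. The 14 that start at most 5 kb past the end of a coding gene of their own strand had a median of -3.10, against -1.71 for the other 210, and 13 of the 14 were called below the median mRNA, as were 173 of the 210. The 12 that start within 1 kb of a protein-coding start on the other strand had a median of -2.75, against -1.73, and all 12 were called below, as were 174 of the other 212. Their PRO-seq TPM was higher than in other members (medians 56.6 and 41.1 TPM, against 32.4 and 32.8 TPM), and their RNA-seq TPM lower (2.54 and 2.52 TPM, against 7.24 and 6.97 TPM). By distance to the nearest protein-coding gene, the median was -2.37 within 10 kb (68 members), -1.88 at 10 to 100 kb (91) and -1.10 beyond 100 kb (65). In these counts, polymerases that ran on past an upstream gene and polymerases of the member itself cannot be told apart.

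The members with the most steady-state RNA were few and unlike each other. ENSG00000285646 (GRCh38, chr1:11908147-11913238, plus strand, 3 exons) had 4870, 4152, 4404 and 3966 TPM in the 4 RNA-seq libraries and 237 and 214 TPM in the 2 PRO-seq libraries. Its log2 difference from the median mRNA was 4.94 (SE 0.08, edgeR adjusted p = 1.3e-30). RNU5E-1, a U5 spliceosomal RNA gene, lies in its exons on the same strand, at bases 6 to 125 of a transcript of 743 bases. RNA-seq counts therefore do not tell the small RNA from the lncRNA. PRO-seq counts leave out the start of a TU, where these bases lie, so transcription of RNU5E-1 may not enter them. The half-life given for this member can then be too high. The part of RNU5E-1 in it and in the RNA-seq level was not tested. MALAT1 (GRCh38, chr11:65497688-65502964, plus strand), an abundant nuclear lncRNA of speckles, had 823, 1049, 828 and 1078 TPM in RNA-seq and 7808 and 7599 TPM in PRO-seq, the highest nascent level of any member. Its RNA was low for that transcription, with a log2 difference of -2.35 (SE 0.06, edgeR adjusted p = 4.5e-25). The MALAT1 transcript counted here has 3 exons and 4227 exonic bases.

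ENSG00000266976 (chr19:28606688-28615229, plus strand, 4 exons), whose nearest protein-coding gene UQCRFS1 is 590091 bp away, had 477, 498, 482 and 504 TPM in RNA-seq. Its PRO-seq levels were 1466 and 1410 TPM and its log2 difference -0.88 (SE 0.03, edgeR adjusted p = 1.3e-20). The libraries of each assay were within a narrow range. ENSG00000237311 on chromosome X (chrX:65925836-66001423, plus strand, 3 exons) had 159, 156, 148 and 151 TPM in RNA-seq but only 2.30 and 2.30 TPM in PRO-seq, from 43 and 44 counts. It fell under the PRO-seq threshold and has no half-life estimate, and none of its 30-base words occurs in a transcript of another gene. The remaining members of the 8 with the highest RNA-seq TPM are LINC01610 and LINC02882, described below, LINC01033 at 0.75 (SE 0.07, edgeR adjusted p = 4.7e-11) and ENSG00000285822 at -0.40 (SE 0.07, edgeR adjusted p = 1.6e-06), the last at 0.26 with 1 count in each assay as the only minimum.

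The 10 members with the highest half-lives past the test were, after ENSG00000285646, 9 RNAs with log2 differences of 0.83 to 1.72. LINC01610 (chr6:70394880-70399417, plus strand) had 87.2, 110.4, 83.4 and 98.3 TPM in RNA-seq and 57.5 and 35.3 TPM in PRO-seq, and its log2 difference was 1.72 (SE 0.18, edgeR adjusted p = 2.1e-10). The 2 PRO-seq values of LINC01610 rest on 51 and 32 counts. ENSG00000232053 (chr7:136092957-136437426, plus strand), a TU of 344470 bp with 733 exonic bases, had 22.5, 30.6, 30.3 and 25.5 TPM in RNA-seq and 13.2 and 13.1 TPM in PRO-seq. Its log2 difference was 1.72 (SE 0.11, edgeR adjusted p = 6.4e-15). LINC02780 had 26.1, 20.3, 25.3 and 27.7 TPM in RNA-seq, 11.9 and 12.5 TPM in PRO-seq and a log2 difference of 1.68 (SE 0.15, edgeR adjusted p = 4.4e-12). In each of these 3 members every RNA-seq library lay above both PRO-seq libraries.

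LINC02882, with 7 exons over 159466 bp, had 88.7, 83.4, 66.6 and 81.7 TPM in RNA-seq and 43.2 and 40.8 TPM in PRO-seq, and its log2 difference was 1.62 (SE 0.08, edgeR adjusted p = 1.5e-18). ENSG00000259929 and LINC01608 had differences of 1.33 and 1.32. The other 3 share much of their sequence with other genes, which bears on where reads could be placed. Of 30-base words in the transcript, 65.7% in GUSBP1 (a GUSB pseudogene family), 97.7% in ENSG00000290948 (its exons cover the pseudogene CSPG4P10) and 55.4% in ENSG00000290523 (shared with KMT2C) also occur in transcripts of genes elsewhere. Their log2 differences were 1.41, 0.89 and 0.83. Records set aside for low alignment quality made up 0.0% of each RNA-seq library, but 21.6% and 20.6% of the PRO-seq libraries. The assays may therefore not treat reads of shared sequence alike, and the part of this in the half-lives was not tested. Other counted TUs of the same strand covered 80.9% of the PRO-seq window of ENSG00000259929, 22.1% of that of LINC02882 and 10.9% of that of ENSG00000290523. Reads in such stretches may be assigned to no TU, and the part of this in their half-lives was not tested. Of all 224 members with an estimate, 27 share over 50% of their words in this way, with a median log2 half-life of -2.16 against -1.80 in the other 197.

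The 10 lowest members were short TUs (2501 to 17248 bp) with strong PRO-seq signal and 8 to 78 RNA-seq counts in all. The SEs given for them are derived from the test statistic. At so few counts and so far from 0 they can be too small. ENSG00000225218 (GRCh38, chr21:42831040-42836477, minus strand, 3 exons) had 6, 7, 2 and 2 counts in the RNA-seq libraries, or 5.42, 5.99, 2.69 and 2.34 TPM. Its PRO-seq levels were 1398 and 1401 TPM, similar to those of ENSG00000266976, and its log2 difference was -7.61 (SE 0.13, edgeR adjusted p = 4.5e-30). ENSG00000225750 (chr1:29144494-29146994, minus strand), which starts 749 bp downstream of SRSF4, a splicing factor gene, had 8.30, 2.62, 4.12 and 7.18 TPM in RNA-seq and 1074 and 1221 TPM in PRO-seq. Its log2 difference was -6.98 (SE 0.17, edgeR adjusted p = 2.4e-26).

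ENSG00000282885 (chr14:49861176-49864326, minus strand) has the 7SL RNA gene RN7SL2, of the signal recognition particle, within its span on the same strand, and it had 1.89, 0.447, 2.81 and 1.53 TPM in RNA-seq against 288 and 325 TPM in PRO-seq. Its log2 difference was -6.91 (SE 0.22, edgeR adjusted p = 2.7e-23). How much of that PRO-seq signal comes from RN7SL2 was not tested. ENSG00000260955, downstream of LYPLA1, had a log2 difference of -6.56 (SE 0.26, edgeR adjusted p = 1.4e-20). LINC01569, downstream of TFAP4, had 1.10, 1.66, 0.964 and 1.26 TPM in RNA-seq, 93.9 and 104 TPM in PRO-seq and a log2 difference of -5.59 (SE 0.15, edgeR adjusted p = 1.0e-24). Together with ENSG00000225750 and ENSG00000233060 (downstream of PCBP1), 4 of these 10 start within 5 kb downstream of a protein-coding gene, as do 14 of all 224. The remaining low members were ENSG00000224635 (-5.34), LINC02728 (-4.77), ENSG00000233060 (-4.67), GOLGA2P5 (-4.59) and ERVK13-1 (-4.42), the last named for a HERV-K provirus.

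Some members were transcribed with hardly any RNA. Among members with 3 or fewer RNA-seq counts over the 4 libraries, LINC02340 (chr13:27203087-27251288, minus strand, 5 exons) had the most PRO-seq counts, 615 and 568, or 52.0 and 46.9 TPM. Its RNA-seq counts were 0, 3, 0 and 0. It starts 74 bp from the start of RPL21, a ribosomal protein gene on the other strand. ENSG00000249526, downstream of CXXC5, had 508 and 537 PRO-seq counts and 0, 2, 1 and 0 RNA-seq counts. ENSG00000290728, whose exons cover the pseudogene PDPK2P, had 344 and 334 PRO-seq counts and 1 RNA-seq count in all. The other 5 of the 8 members named by this rule were ENSG00000243620, ENSG00000255094, ENSG00000217576, ENSG00000255946 and ENSG00000273674, with 435 to 817 PRO-seq counts. Of the 8, 3 start downstream of a protein-coding gene and 2 head to head with one. Of the 99 members above 10 TPM in PRO-seq and without an estimate, 18.2% start downstream of a protein-coding gene, against 6.25% of the 224 with one, and 11 had no RNA-seq count.

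The reverse pattern, RNA without nascent signal, went with overlapping TUs. All 11 members with 50 or more RNA-seq counts and 0 PRO-seq counts had a PRO-seq window that lay wholly inside another counted TU on the same strand, and HTSeq by default assigns a read over overlapping features to none of them. Over all members, 2.04% of 147 with such a window had a PRO-seq count (Wilson 95% interval 0.70% to 5.83%). The share was 68.7% (63.2% to 73.7%) of 294 whose window lay wholly inside TUs of the other strand alone, and 78.2% of 2510 with no other counted TU in the window. The RNA-seq shares were 41.5%, 38.8% and 44.9%. A PRO-seq count of 0 in a member inside another TU of its strand therefore cannot be read as a lack of transcription.

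Of 67 lncRNAs on 5 lists of well-studied genes, 35 are members, 31 of them with an RNA-seq count and 30 with a PRO-seq count. Half-life estimates were available for 13, of which 8 were below the median mRNA, 4 above and 1 not called, beside 50.4% below and 39.9% above over all TUs. Their median was -0.70, against -1.82 over all 224 members with an estimate.

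Genes linked to cancer and growth supplied 15 members, 7 with an estimate, 3 of them above and 4 below. CRNDE, named for colorectal neoplasia, had 25.9, 29.9, 30.9 and 27.6 TPM in RNA-seq and 38.4 and 39.6 TPM in PRO-seq, and its log2 difference was 0.22 (SE 0.07, edgeR adjusted p = 0.0056). LINC00467 had a log2 difference of 0.27 (SE 0.09, edgeR adjusted p = 0.0083), and LINC01234 one of 0.32 (SE 0.14, edgeR adjusted p = 0.031). The fold differences of the 3 were 1.16, 1.20 and 1.25. The LINC00467 and LINC01234 calls are lost with DESeq2, with adjusted p = 0.062 and 0.11. LINC01234 also loses its call without RNA-seq replicate 2 or 3 or PRO-seq replicate 2 (edgeR adjusted p = 0.076, 0.22 and 0.0997). Well below the median mRNA was UCA1, named for urothelial cancer, with 12.4, 10.3, 12.1 and 9.88 TPM in RNA-seq, 76.6 and 75.4 TPM in PRO-seq and a log2 difference of -2.09 (SE 0.13, edgeR adjusted p = 2.8e-15). LINC00963 was at -1.62 (SE 0.08, edgeR adjusted p = 1.6e-17), LINC00662 at -0.69 (SE 0.16, edgeR adjusted p = 2.1e-04) and LINC00665 at -2.50 (SE 0.25, edgeR adjusted p = 1.6e-10). HULC, known from liver cancer, had 13 RNA-seq and 56 PRO-seq counts. The HULC transcript counted here has 9 exons over 858101 bp, and other counted TUs of its strand cover 37.8% of its PRO-seq window. Its counts therefore do not describe any shorter transcript of the gene. CYTOR, a regulator of the cytoskeleton, had 14, 13, 11 and 10 RNA-seq counts and 0 PRO-seq counts, with its window inside another counted TU of its strand and 79.9% of its 30-base words shared with genes elsewhere, foremost MIR4435-2HG.

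Of 5 members on the list of chromatin, X inactivation, HOX and imprinted genes, 2 had estimates. FIRRE, an X-linked RNA that binds chromatin through repeats, had 20.9, 25.4, 23.3 and 23.2 TPM in RNA-seq and 29.5 and 30.2 TPM in PRO-seq, with a log2 difference of 0.31 (SE 0.06, edgeR adjusted p = 3.8e-05). JPX, a gene of the X inactivation centre, had 7.60, 8.93, 10.6 and 11.8 TPM in RNA-seq, 32.9 and 32.3 TPM in PRO-seq and a difference of -1.10 (SE 0.11, edgeR adjusted p = 4.6e-11). FENDRR, MEG9 and LINC01139 had at most 3 RNA-seq counts each.

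None of the 5 stem cell and neural members had an estimate: LINC-ROR, RMST, MIAT, LINC00458 and LINC00461 had 0 to 12 RNA-seq counts. Of 3 p53 and stress members, PURPL, which is induced by p53 and acts on its level, was at -0.61 (SE 0.14, edgeR adjusted p = 1.5e-04), or at 0.054 with 1 count in each assay as the only minimum, and TP53TG1 fell under the PRO-seq threshold with 90 RNA-seq and 71 PRO-seq counts. Of 7 blood and immune members, LINC00861 was at -2.64 (SE 0.18, edgeR adjusted p = 2.0e-14) and LINC00173 at -2.58 (SE 0.71, edgeR adjusted p = 0.0013), the latter on 6 RNA-seq and 11 PRO-seq counts. PRKCQ-AS1 did not differ detectably from the median mRNA, with 14.6, 19.3, 12.6 and 12.5 TPM in RNA-seq, 23.5 and 23.2 TPM in PRO-seq and a log2 difference of 0.05 (SE 0.15, edgeR adjusted p = 0.75), or -0.12 without RNA-seq replicate 2. LINC00926, a B cell lncRNA, had 12 RNA-seq and 82 PRO-seq counts.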

How the data were processed

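Untreated K562 cells gave 4 libraries of total RNA-seq and 2 of PRO-seq. The deposited values are raw counts per TU that the authors made with cutadapt, HISAT2 (GRCh38) and HTSeq on GENCODE; for PRO-seq the labels name 500 bases left out, taken here as 500 at each end of a TU. Tool versions and how strand was used were not given in the sources used here. Rows naming no TU held 66.5% to 68.6% of RNA-seq and 86.5% or 88.6% of PRO-seq records and were left out. TU counts were 5732780 to 9002746 and 6993816 or 7245632 per library.

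Lengths, classes and GRCh38 positions came from the GENCODE annotation by transcript identifier. RNA-seq TPM used exon length and PRO-seq TPM the span minus 1000 bp. Small RNA genes, pseudogenes and shared 30-base words were looked up in the GRCh37 release of that annotation. No genome sequence was read by position. 24 noncoding transcripts with 3 or more exons and no GRCh38 position were left out, as were 2 members of 1000 bp or less from TPM.

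RNA-seq was compared with PRO-seq by edgeR (version 4.0.16, R version 4.3.3): quasi-likelihood test, TMM, offsets for length, centring on the median mRNA and Benjamini-Hochberg adjustment over 10079 TUs. SEs are the size of the log2 difference over the square root of F. For TUs with few counts and a large difference, such an SE can be smaller than counting error alone would give. On simulated counts for these TUs, it recovered 86.5% of 200 changed TUs, with 8 false calls. The simulation gave every TU the same dispersion and left all but the 200 unchanged. In the data the median SD between libraries was 0.28 in members and 0.13 in mRNAs, so these figures need not hold for members. DESeq2 (version 1.42.0), thresholds, lengths, subsets of members and each library left out were tried; subsets for small RNA genes, shared sequence, counted TUs on the same strand and ENSG00000285646, and the fit of replicates 1 and 2 without a block, were chosen after seeing the data. Named members are the 10 highest and 10 lowest half-lives called and on the same side in replicates 1 and 2, the 8 highest RNA-seq TPM, the 8 with most PRO-seq counts and at most 3 RNA-seq counts, and 5 lists of genes. Members and lists were chosen with earlier results of these data known. XIST and genes on chromosome Y are counted but not described, and some sequences are not reported here. Python 3.11.15 with scipy 1.17.1 was used for other steps.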

Additional observations from a re-analysis of the deposited data

How the results depend on the processing

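Members called below the median mRNA (186) and above it (19) numbered 179 and 16 with DESeq2, 187 and 19 with the close RNA-seq pairs summed, and 177 to 188 and 16 to 19 with each library left out. With 1 summed count in each assay as the only minimum, 576 were below and 94 above, of 1531 members. With 20 and 2 TPM, 126 were below and 9 above, of 144, and against a 2-fold difference 138 and 8. The share over all TUs is given for the main fit only, so counts from the other fits cannot be read as an excess or a deficit. Of members overlapping no other annotated gene, 47 were below and 3 above, of 53. Of the 205 calls, 195 were kept with DESeq2 and 176 with 1 count as the minimum, where 6 reversed. RNA-seq and PRO-seq replicates 1 and 2 share only a number: the correlation of their deviations was -0.0069 over 9986 TUs. With the replicate block on those 4 libraries 187 were below and 18 above, and without the block 188 and 18.

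The median of members minus mRNAs (-1.82) was -1.93 with 20 and 2 TPM, -1.33 with 1 count, -1.90 with 500 bp removed, -1.61 with a pseudocount of 1 TPM, -1.80 where 1000 bp or more remained in the PRO-seq window, -2.42 without overlapping genes, -1.88 without small RNA genes, -1.76 with at most 20% shared sequence, -1.86 with no other counted TU on the strand, and -1.85 to -1.78 with each library left out. Against single-exon lncRNAs (1.90) it was 1.47 with 20 and 2 TPM, 2.49 with 1 count, 1.25 with 500 bp, 1.69 with the pseudocount, 1.68 with 1000 bp left, 1.30 with only the members without overlapping genes (the single-exon class unchanged) and 1.74 to 1.97 with libraries left out. Against 2-exon lncRNAs (1.30), likewise with that class unchanged for overlapping genes, the values in that order were 0.90, 0.92, 1.04, 1.02, 1.04, 0.70 and 1.11 to 1.47. Between members with 5 or more exons and 3 (0.60) they were 0.16 with 1 count, 0.44 with 500 bp, 0.75 without overlapping genes, 0.87 with at most 20% shared sequence, and 0.54 to 0.68 with libraries left out.

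Estimates were had for 222 to 227 members with libraries left out. Members with an RNA-seq count made up 12.6% at a minimum of 10, 42.6% without overlapping genes, and 39.9% to 42.4% with libraries left out. In PRO-seq they made up 39.9%, 75.6%, and 67.3% to 70.4%, and 79.5% with no other counted TU on the strand. Spearman's rho was 0.60 at 10 counts and 0.60 without overlapping genes, and 0.69 to 0.72 with libraries left out. The difference in percent of counts was -2.40 without the most counted member, and -2.35 to -2.33 with libraries left out.

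Of 533 values of 37 named members, 3 reversed: ENSG00000285822 (0.26) and PURPL (0.054) with 1 count as the minimum, where the median is taken over more mRNAs, and PRKCQ-AS1 without RNA-seq replicate 2 (-0.12, and up to 0.12 without replicate 4). A further 22 lost their call and 1 gained one. The cause was not tested for the other changes. Depth limits many values: the median member seen in both assays had 3 RNA-seq counts and 24 PRO-seq counts.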

Other observations

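The members with the most PRO-seq counts, picked after their values were seen, include long TUs. LINC01287 on chromosome 7 had 47.8, 49.7, 46.2 and 47.1 TPM in RNA-seq and 611 and 596 TPM in PRO-seq, from 17619 PRO-seq counts, more than MALAT1 with 16699. Its log2 difference from the median mRNA was -2.98 (SE 0.04, edgeR adjusted p = 8.0e-32). LINC02476 (11911 PRO-seq counts), on the same chromosome, was at -1.09 (SE 0.09, edgeR adjusted p = 4.0e-12), and ENSG00000259560 (10657) on chromosome 15 at -0.45 (SE 0.09, edgeR adjusted p = 5.4e-05).

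XACT, known for coating the active X chromosome in human pluripotent cells, was transcribed in this leukemia line. The TU spans 442822 bp and held 7502 PRO-seq counts, with 34.0 and 33.0 TPM in PRO-seq and 7.75, 10.8, 15.04 and 12.7 TPM in RNA-seq. Its log2 difference from the median mRNA was -0.91 (SE 0.13, edgeR adjusted p = 1.6e-07). The bladder-cancer-linked LINC00958 had 31.2, 25.2, 27.7 and 26.2 TPM in RNA-seq, 341 and 322 TPM in PRO-seq and a log2 difference of -2.91 (SE 0.07, edgeR adjusted p = 5.3e-26).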
